A study of Mus musculus with 72 samples.

Results

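The results concern 10 genes of blood stem and progenitor cells that were chosen by symbol, with earlier results of these data known: the receptors Kit and Flt3, the surface proteins Cd34 and Adgrg1, and the transcription factors Gata2, Erg, Meis1, Mecom, Myb and Sox4. Each was read from the platform's probe sets with a single gene symbol, taking the brightest where a gene had several, and all 10 were found among 19938 genes. Mecom had 2 such probe sets and the other members 1 each. The study asked how retinoic acid (RA) acts in acute promyelocytic leukaemia (APL), in which a fusion of the retinoic acid receptor alpha (RARA) blocks the maturation of granulocytes, and how far the response depends on the fusion partner and on Pml. Total RNA of bone marrow from leukaemic mice was hybridised to 72 Affymetrix Mouse Gene 1.0 ST arrays.

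Transgenic mice carried either PML/RARA or PLZF/RARA on a wild type background. For the viral model PML/RARA was introduced by transduction, and the background was labelled wild type or pml-/-, called Pml null below. Each of these 4 leukaemia types was sampled untreated or after RA, at 6 h and at 12 h, which made 16 groups. At either time there were 4 untreated and 8 treated arrays of transgenic PML/RARA, and 2 and 4 of transgenic PLZF/RARA. For each viral background these numbers were 4 and 8 at 6 h, and 2 and 4 at 12 h. The labels give no RA dose, no transgene promoter, no age, and no statement that the arrays within a group are separate animals or leukaemias. The p-values therefore measure only the spread between these arrays, which may be technical. The tissue label is bone marrow and the extraction protocol speaks of tumour samples. In such bulk RNA fewer cells of a type and less RNA per cell cannot be told apart.

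Kit is the receptor for stem cell factor and Flt3 the receptor for Flt3 ligand. Both are tyrosine kinases that keep early blood cells alive and dividing, and both are lost as granulocytes mature. Cd34 and the adhesion receptor Adgrg1 (Gpr56) are used to mark stem and progenitor cells. Gata2 and Erg belong to a group of factors that bind together at the enhancers of stem cell genes, Myb keeps progenitors immature, and Meis1 and Mecom (Evi1) are factors of self-renewal that drive other leukaemias when overexpressed.

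The upstream sequences of the 5 members that fell most often after RA are shown, so that a reader can see what lies in front of these genes. Each is the 250 bases before an annotated start of the RefSeq table (GRCm38.p6), 5′ to 3′ on the gene's strand, at chr5:75574737-75574986 (plus) for Kit, chr1:194938571-194938820 (plus) for Cd34, chr6:88193641-88193890 (plus) for Gata2, chr8:94976859-94977108 (plus) for Adgrg1 and chr16:95459349-95459598 (minus) for Erg. All are upstream of the first exon of an annotated transcript. The third of the 3 Erg windows is shown because it held the most searched motifs. Capitals mark matches to the motifs named after the sequences, with the exception of the short MYB core. Of the 5 windows shown, only that of Erg holds such a match.
Kit: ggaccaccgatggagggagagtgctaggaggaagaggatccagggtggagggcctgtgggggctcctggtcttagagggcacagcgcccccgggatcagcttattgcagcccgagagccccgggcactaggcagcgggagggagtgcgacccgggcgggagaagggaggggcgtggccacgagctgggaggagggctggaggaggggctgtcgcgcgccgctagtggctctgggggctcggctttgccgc
Cd34: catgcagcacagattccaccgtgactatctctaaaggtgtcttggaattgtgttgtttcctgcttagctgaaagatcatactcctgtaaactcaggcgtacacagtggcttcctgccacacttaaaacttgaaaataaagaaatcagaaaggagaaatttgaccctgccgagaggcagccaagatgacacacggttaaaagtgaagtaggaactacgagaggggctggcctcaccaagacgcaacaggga
Gata2: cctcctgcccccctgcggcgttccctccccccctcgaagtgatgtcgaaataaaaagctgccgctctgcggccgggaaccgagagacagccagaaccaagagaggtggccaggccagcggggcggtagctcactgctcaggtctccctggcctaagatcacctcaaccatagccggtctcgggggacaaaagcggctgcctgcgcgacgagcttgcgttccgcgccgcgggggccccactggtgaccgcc
Adgrg1: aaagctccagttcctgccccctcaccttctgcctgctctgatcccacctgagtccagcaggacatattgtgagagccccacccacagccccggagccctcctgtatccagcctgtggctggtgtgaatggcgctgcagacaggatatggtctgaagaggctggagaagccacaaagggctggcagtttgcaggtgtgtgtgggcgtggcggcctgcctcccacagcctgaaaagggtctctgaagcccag
Erg: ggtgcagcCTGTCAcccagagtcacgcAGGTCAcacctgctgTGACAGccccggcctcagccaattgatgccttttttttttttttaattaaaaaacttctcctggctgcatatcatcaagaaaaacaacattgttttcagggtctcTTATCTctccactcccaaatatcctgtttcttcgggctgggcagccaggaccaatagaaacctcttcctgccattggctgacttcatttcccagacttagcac

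The motifs were searched on both strands in the 16 windows of the members and in all 32851 windows of the table. The motif of retinoid receptors, AGGTCA, was in 14.0% of all windows and in 1 window each of Erg, Mecom and Sox4. Its direct repeats with 5 or with 2 bases between the copies, which contain it and are counted there too, were each in 0.00913% of all windows and in none of the 16. The motif of GATA factors, here AGATAA, was in 9.99% of all windows and in the third window of Erg. The MEIS motif TGACAG was in 15.9% and in windows of Erg and Mecom. The C/EBP motif TTGCNNAA was in 9.56% and in the other 2 windows of Erg. The ETS motif CCGGAAG (6.91%) and the RUNX motif TGTGGT (14.0%) were each in the window of Meis1, and the E box CACGTG (6.02%) was in none of the members' windows. The MYB core AACNG was in 74.2% of all windows and in windows of 7 members, and is not capitalised. The first windows of Kit and Gata2 held 70.8% and 67.2% G and C, against a median of 52.4% over all windows and 46.4% for Cd34. A match is a description of these letters, and no match says only that they are not in this window.

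Values are log2 levels as deposited, so that a difference of 1 is a change of 2-fold. A change is the fitted RA minus untreated difference at the same time with its standard error (SE), from a limma model over the 36 arrays of a model with batch as a term, and a gene was called at a Benjamini-Hochberg adjusted p below 0.05 over all 19938 genes. The array medians ran from 6.56 to 6.81. Primary granule genes of promyelocytes such as Mpo and Elane were high on every array (mean of 8 genes 11.41 to 12.63). The Pml probe set did not separate the backgrounds: untreated arrays labelled wild type ran from 9.20 to 9.46 and those labelled Pml null from 9.08 to 9.52. Where its probes lie relative to the deletion is not given in the labels, so this level checks nothing, and the backgrounds are those of the labels throughout. Cyp26a1, the RA-degrading enzyme, separated every RA array (6.12 or above) from every untreated array (at most 5.73).

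Some viral RA arrays stood apart from their group. On arrays 5 and 6 of the wild type RA group at 6 h, both of batch 3, Kit was 9.12 and 9.19, inside the untreated range of 9.08 to 9.56, while the other 6 lay between 7.01 and 7.61. Cyp26a1 was 8.52 and 9.08 on these arrays. At 12 h, wild type RA arrays 1 and 2 had Cd34 at 9.68 and 9.69 and Erg at 9.64 and 9.26, whereas arrays 3 and 4 had Cd34 at 11.19 and 11.05 and Erg at 7.67 and 7.79. The mean of 13 secondary granule and neutrophil genes was 12.63 and 12.58 on the first pair and 11.50 and 11.52 on the second. Pml null RA arrays at 12 h also formed pairs, with Cd34 at 10.09 and 9.85 on arrays 1 and 3 and 11.15 and 11.09 on arrays 2 and 4, and the neutrophil mean at 10.69 and 10.68 against 10.21 and 9.94. Called changes of the members at these times are given with and without these arrays.

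The first comparison asked how the members respond to RA in each leukaemia type. None of the 10 was called as a rise in any of the 8 comparisons of RA with untreated arrays in the main fit. Of the 80 pairs of member and comparison 26 were called, all as falls. Kit fell in 6 of the 8, Adgrg1 and Erg in 5, Cd34 and Gata2 in 4 and Myb in 2. Flt3, Meis1, Mecom and Sox4 were called in none. In transgenic PML/RARA 5 members fell at 6 h and 5 at 12 h, where 14.3% and 21.6% of all genes were called in either direction. The same 5 genes fell at both times: Kit, Cd34, Adgrg1, Gata2 and Erg. In transgenic PLZF/RARA no member was called at 6 h (1 had an unadjusted p below 0.05 in limma) and 3 fell at 12 h, Cd34, Adgrg1 and Gata2, against 2.20% and 4.03% of all genes. In viral leukaemia labelled wild type 3 fell at 6 h (Kit, Erg and Myb) and 1 at 12 h (Kit), against 9.88% and 6.10% of all genes. In viral leukaemia labelled Pml null 4 fell at 6 h (Kit, Erg, Adgrg1 and Myb) and 5 at 12 h (Kit, Cd34, Adgrg1, Gata2 and Erg), against 11.4% and 6.05%. The median change over the 10 members ran from -0.63 in Pml null at 12 h to -0.15 in PLZF/RARA at 6 h, and the median over all genes from -0.05 to 0.06. The plot of changes by leukaemia type shows the same split, with 5 members to the left of zero in all 4 panels and Flt3, Meis1, Mecom and Sox4 around it.

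**Figure D1:**
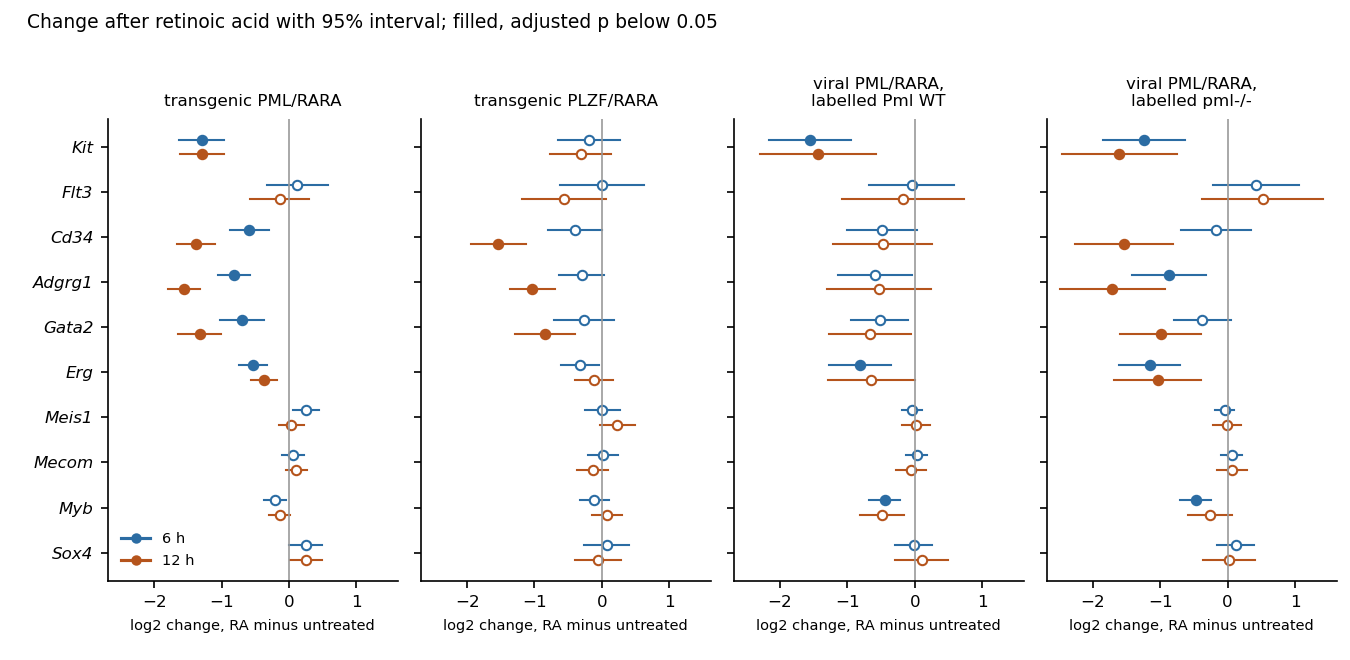
Change of each member after RA (horizontal axis, log2 RA minus untreated, with 95% interval) at 6 h and 12 h in the 4 leukaemia types; filled points have an adjusted p below 0.05. Kit, Cd34, Adgrg1, Gata2 and Erg are below 0 in all 8 comparisons, and Kit is filled in the 6 PML/RARA comparisons but in neither PLZF/RARA comparison.

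Of the receptors, Kit fell at 6 h and at 12 h in all 3 PML/RARA leukaemia types. On untreated transgenic PML/RARA arrays Kit was 9.82, 10.58, 10.48 and 10.21 at 6 h and 10.50, 10.35, 10.29 and 10.65 at 12 h. The 8 RA arrays ran from 8.42 to 9.34 at 6 h (median 9.08) and from 8.70 to 9.5 at 12 h (median 9.26). All RA arrays lay below all untreated arrays at both times. Kit fell by 1.3 ± 0.16 (SE, 4 and 8 arrays, adjusted p = 3.75e-07) at 6 h and fell by 1.29 ± 0.16 (adjusted p = 1.13e-07) at 12 h, which is 2.45-fold at each time. In this type the change from 6 h to 12 h was 0.00 ± 0.23, with a 95% interval from -0.46 to 0.47. At 6 h the change was -1.34 within batch 1 and -1.22 within batch 2.

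In transgenic PLZF/RARA leukaemia the change of Kit did not pass the test. The untreated arrays were at 10.68 and 10.72 (6 h) and at 10.67 and 10.79 (12 h). The RA arrays were at 10.43, 10.51, 10.74 and 10.36 at 6 h and at 10.50, 10.20, 10.49 and 10.47 at 12 h. The groups overlapped at 6 h, and at 12 h the 4 RA arrays lay below both untreated arrays. The change was -0.19 ± 0.22 at 6 h (adjusted p = 0.75) and -0.31 ± 0.22 at 12 h (adjusted p = 0.55), with a 95% interval from -0.77 to 0.14 at 12 h.

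In viral leukaemia labelled wild type, untreated Kit was 9.08, 9.27, 9.41 and 9.56 at 6 h and 9.21 and 9.11 at 12 h. After RA it ran from 7.01 to 9.19 at 6 h (median 7.42) and was 8.34, 7.46, 7.71 and 7.39 at 12 h. Kit fell by 1.55 ± 0.30 at 6 h (adjusted p = 0.000519), and fell by 1.99 ± 0.21 without the 2 arrays in the untreated range. The change at 6 h was -1.14 within batch 3, which holds those arrays and where it was not called, and -1.96 within batch 4. At 12 h Kit fell by 1.44 ± 0.42 (adjusted p = 0.0346), and this call rested on each of several arrays. Without RA array 2, 3 or 4 or either untreated array the adjusted p was between 0.0532 and 0.261, and without the batch term 0.0557. Without RA arrays 1 and 2 the change was -1.61 (adjusted p = 0.0284) and without 3 and 4 it was -1.26 (adjusted p = 0.136).

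In viral leukaemia labelled Pml null, Kit started higher, at 11.03, 11.26, 11 and 11.11 (6 h) and 10.87 and 11.07 (12 h) untreated. After RA it ran from 9.17 to 10.79 at 6 h (median 9.73) and was 9.77, 8.91, 9.62 and 9.18 at 12 h, so that no RA array reached an untreated one. Kit fell by 1.24 ± 0.30 at 6 h (adjusted p = 0.00487) and fell by 1.61 ± 0.42 at 12 h (adjusted p = 0.0157). The 6 h change was -1.28 within batch 4, where it was called, and -1.21 within batch 3, where it was not. The call at 12 h was lost without RA array 2 (adjusted p = 0.058) or untreated array 1 or 2 (0.0958 and 0.224). Without RA arrays 1 and 3 the change was -1.93 (called), and without 2 and 4 it was -1.28 (adjusted p = 0.226).

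**Figure D2:**
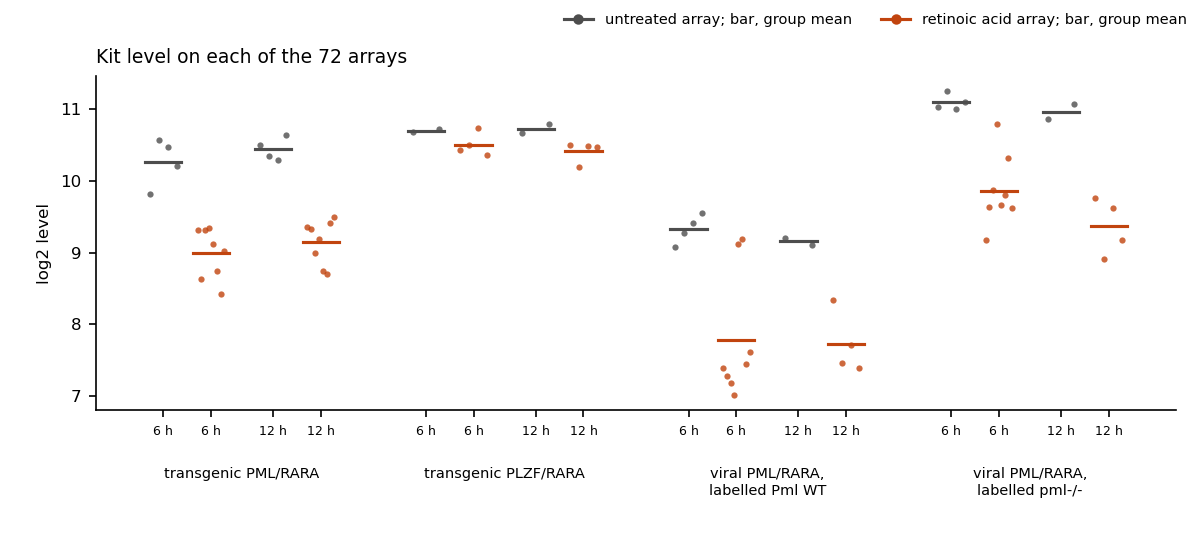
Kit log2 level (vertical axis) on each of the 72 arrays, grouped along the horizontal axis by leukaemia type and time; points are arrays and bars are group means. RA arrays of transgenic PML/RARA (8.42 to 9.5) lie below the untreated ones (9.82 to 10.65), those of PLZF/RARA stay between 10.20 and 10.74, and 2 RA arrays of viral leukaemia labelled wild type lie among the untreated arrays at 6 h.

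Kit is also a gene of mast cells, so their markers were read beside it. The mean of 12 mast cell and basophil genes (among them Cpa3, Mcpt8 and Fcer1a) ran from 6.00 to 7.21 over the 72 arrays and its RA minus untreated difference from -0.22 to 0.04 over the 8 comparisons. At most 2 of the 12 were called as lower in any of them. At 12 h 1 was called as higher in transgenic PML/RARA and 1 in Pml null. The counts of 2 were in transgenic PML/RARA at 12 h and in viral wild type at 6 h. There 21.6% and 9.88% of all genes were called in either direction, and 6.05% in Pml null at 12 h. No value lies at 0 on this scale, on which the lowest value of all arrays is 2.6. The part of these cells in the Kit changes was not tested.

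Flt3, the other receptor, was not called in any RA comparison. On untreated transgenic PML/RARA arrays it was 7.21, 6.93, 6.48 and 6.85 at 6 h, within which range the RA arrays lay (6.85 to 7.08), and the changes were 0.12 ± 0.22 at 6 h and -0.14 ± 0.22 at 12 h. In PLZF/RARA at 12 h the 2 untreated arrays were at 8.56 and 6.94 and the RA arrays at 7.33, 8.14, 6.61 and 6.69. The change there was -0.56 ± 0.30 and depended on which untreated array was kept, at 0.25 without array 1 and -1.37 (adjusted p = 0.0167) without array 2. In viral Pml null leukaemia at 6 h the RA arrays spread from 6.46 to 9.08 around a change of 0.43 ± 0.31.

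Of the surface proteins, Cd34 fell in both transgenic types by 12 h. Untreated transgenic PML/RARA arrays were at 12.03, 12.40, 12.25 and 12.42 at 6 h and at 12.31, 12.32, 12.49 and 12.37 at 12 h. The RA arrays ran from 10.96 to 12.08 (median 11.75) at 6 h, overlapping slightly, and from 10.66 to 11.34 (median 11.02) at 12 h, below all untreated arrays. Cd34 fell by 0.59 ± 0.14 at 6 h (adjusted p = 0.00383) and fell by 1.38 ± 0.14 at 12 h (adjusted p = 2.22e-09). The call at 6 h was lost without untreated array 4 (adjusted p = 0.0578) and with all 72 arrays in 1 fit (0.0654). The change was called within batch 1 (-0.72) and not within batch 2 (-0.38).

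In PLZF/RARA Cd34 was 12.06 and 11.90 untreated and 11.75, 11.30, 11.68 and 11.62 after RA at 6 h, a change of -0.40 ± 0.20 (adjusted p = 0.361). At 12 h the untreated arrays were at 11.86 and 11.89 and the RA arrays at 10.54, 10.43, 10.02 and 10.37. Cd34 fell by 1.53 ± 0.20 (2.90-fold, adjusted p = 6.28e-06), and was called without each array in turn.

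In viral leukaemia Cd34 was less even. Arrays labelled wild type were at 11.17 and 10.58 untreated at 12 h and at 9.68, 9.69, 11.19 and 11.05 after RA, so that 2 RA arrays lay below and 2 within or above the untreated ones. The change was -0.47 ± 0.36 (adjusted p = 0.621). It was -1.19 without RA arrays 3 and 4 (adjusted p = 0.0277) and 0.24 without 1 and 2. Arrays labelled Pml null were at 11.92 and 12.25 untreated and 10.09, 11.15, 9.85 and 11.09 after RA at 12 h. Cd34 fell there by 1.54 ± 0.36 (adjusted p = 0.00594). The change was -2.11 without RA arrays 2 and 4, and was not called without 1 and 3 (-0.97, adjusted p = 0.105) or without untreated array 2 (adjusted p = 0.167). At 6 h neither background had a called change, with -0.49 ± 0.25 in wild type and -0.17 ± 0.25 in Pml null.

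Adgrg1 fell further at 12 h than at 6 h in transgenic PML/RARA. Untreated arrays were at 10.47, 11.13, 10.90 and 10.98 at 6 h and at 10.82, 10.95, 11.71 and 11.47 at 12 h. The RA arrays held a narrow range, from 9.93 to 10.24 (median 10.04) at 6 h and from 9.55 to 9.76 (median 9.69) at 12 h, below all untreated arrays. Adgrg1 fell by 0.82 ± 0.12 (adjusted p = 4.90e-06) and fell by 1.56 ± 0.12 (2.94-fold, adjusted p = 2.50e-12). Between the times the untreated mean went from 10.87 to 11.24 and the RA mean from 10.06 to 9.68. The step from 6 h to 12 h was -0.74 ± 0.17 (adjusted p = 0.0408), the only member called of 10, where 0.231% of all genes were called. This call was lost on leaving out any 1 of 16 of the 24 arrays, with values between -0.79 and -0.58 (adjusted p between 0.0511 and 0.189), and with all 72 arrays in 1 fit (0.499). The 6 h change was -0.91 within batch 1 and -0.68 within batch 2, where its adjusted p was 0.0515.

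In PLZF/RARA Adgrg1 was 12.21 and 12.06 untreated and 12.01, 11.56, 12.02 and 11.77 after RA at 6 h, a change of -0.30 ± 0.16. At 12 h it was 12.07 and 12.20 untreated and 11.02, 11.07, 11.11 and 11.20 after RA, where it fell by 1.03 ± 0.16 (adjusted p = 1.11e-04). In viral leukaemia labelled Pml null it fell by 0.87 ± 0.27 at 6 h (adjusted p = 0.0315), which was not called without RA array 2, 5 or 6 or untreated array 2 or 4 (adjusted p between 0.0546 and 0.175), nor within batch 3 (-1.02) or batch 4 (-0.72). At 12 h it fell by 1.71 ± 0.38 (3.27-fold, adjusted p = 0.00383), from 9.66 and 10.24 to 8.36, 8.33, 7.68 and 8.57, and was not called without untreated array 2 (adjusted p = 0.179). It was called without RA arrays 1 and 3 (-1.50, adjusted p = 0.0246) and without 2 and 4 (-1.92, adjusted p = 0.0113). In viral leukaemia labelled wild type the change was -0.59 ± 0.27 at 6 h (adjusted p = 0.191) and -0.53 ± 0.38 at 12 h (adjusted p = 0.579). Arrays 5 and 6 were at 9.10 and 9.12 at 6 h, inside the untreated range, and without them the 6 h change was -0.79 (adjusted p = 0.0508). The 12 h change was -0.19 without RA arrays 1 and 2 and -0.87 without 3 and 4, not called in either.

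Among the transcription factors, Gata2 followed Cd34. In transgenic PML/RARA it was 9.12, 9.66, 9.47 and 9.67 untreated at 6 h and 9.48, 9.81, 10.33 and 9.99 at 12 h. The RA arrays ran from 8.30 to 9.08 (median 8.85) and from 8.36 to 8.73 (median 8.60), below all untreated arrays at each time. Gata2 fell by 0.70 ± 0.16 at 6 h (adjusted p = 0.00208) and fell by 1.32 ± 0.16 at 12 h (2.50-fold, adjusted p = 4.70e-08). The 6 h change was called within batch 1 (-0.86) and not within batch 2 (-0.45).

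In PLZF/RARA Gata2 overlapped at 6 h, with a change of -0.26 ± 0.22. At 12 h it was 9.64 and 9.56 untreated and 8.50, 9.32, 8.67 and 8.54 after RA, with RA array 2 closest to the untreated arrays. It fell by 0.84 ± 0.22 (adjusted p = 0.0194), a call lost without RA array 1 or 4 or either untreated array (adjusted p between 0.0506 and 0.153), or with all 72 arrays in 1 fit (0.0702). In Pml null leukaemia Gata2 fell by 0.99 ± 0.30 at 12 h (adjusted p = 0.038). That call was lost without RA array 2 or 3, either untreated array, or RA arrays 1 and 3 together (adjusted p between 0.0532 and 0.493), with values between -1.2 and -0.74, and without the batch term (0.0735). It was called without RA arrays 2 and 4 (-1.25, adjusted p = 0.0381). In wild type viral leukaemia it was not called (-0.52 ± 0.21 at 6 h, -0.66 ± 0.30 at 12 h). It was called at -0.64 at 6 h without RA arrays 5 and 6 (adjusted p = 0.0409) and at -1.06 at 12 h without RA arrays 3 and 4 (adjusted p = 0.0371).

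Erg, an ETS factor, fell in every PML/RARA comparison except viral wild type at 12 h. In transgenic PML/RARA it went from 10.17, 10.27, 10.43 and 10.40 to a range of 9.52 to 10.13 at 6 h, and fell by 0.54 ± 0.10 (adjusted p = 1.89e-04). At 12 h it went from 10.43, 10.42, 10.30 and 10.43 to between 9.70 and 10.22, and fell by 0.37 ± 0.10 (adjusted p = 0.0047), which was not called with all 72 arrays in 1 fit (0.149). No RA array reached an untreated one at either time. In PLZF/RARA the changes were -0.32 ± 0.14 (adjusted p = 0.276) and -0.11 ± 0.14. The transgenic falls were the smallest called falls of Erg, at 1.45-fold and 1.29-fold.

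In viral leukaemia Erg fell at 6 h with no overlap in either background. Arrays labelled wild type went from 9.18, 9.13, 9.30 and 9.28 to between 8.06 and 8.58, and fell by 0.81 ± 0.22 (adjusted p = 0.0164), with -0.81 also without RA arrays 5 and 6. The call was lost without untreated array 3 or 4 (adjusted p = 0.0568 and 0.053). Arrays labelled Pml null went from 9.92, 10.22, 10.15 and 10.15 to between 8.40 and 9.33, and fell by 1.16 ± 0.22 (2.23-fold, adjusted p = 5.52e-04). Within batch 3 neither 6 h change was called (-0.86 and -1.26), and within batch 4 both were (-0.76 and -1.06).

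At 12 h Erg in Pml null leukaemia was 10.08 and 10.28 untreated and 9.40, 8.87, 9.07 and 9.23 after RA, and fell by 1.04 ± 0.32 (adjusted p = 0.0446). This call was lost without RA array 2, 3 or 4, either untreated array, or either pair of RA arrays, with values between -1.14 and -0.94 (adjusted p between 0.0511 and 0.398). In the wild type background the 12 h arrays split, with RA arrays 1 and 2 at 9.64 and 9.26 against untreated 9.29 and 9.18. The change was -0.65 ± 0.32 over all 4 (adjusted p = 0.288), -1.51 without RA arrays 1 and 2 (adjusted p = 6.45e-06) and 0.22 without 3 and 4.

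**Figure D3:**
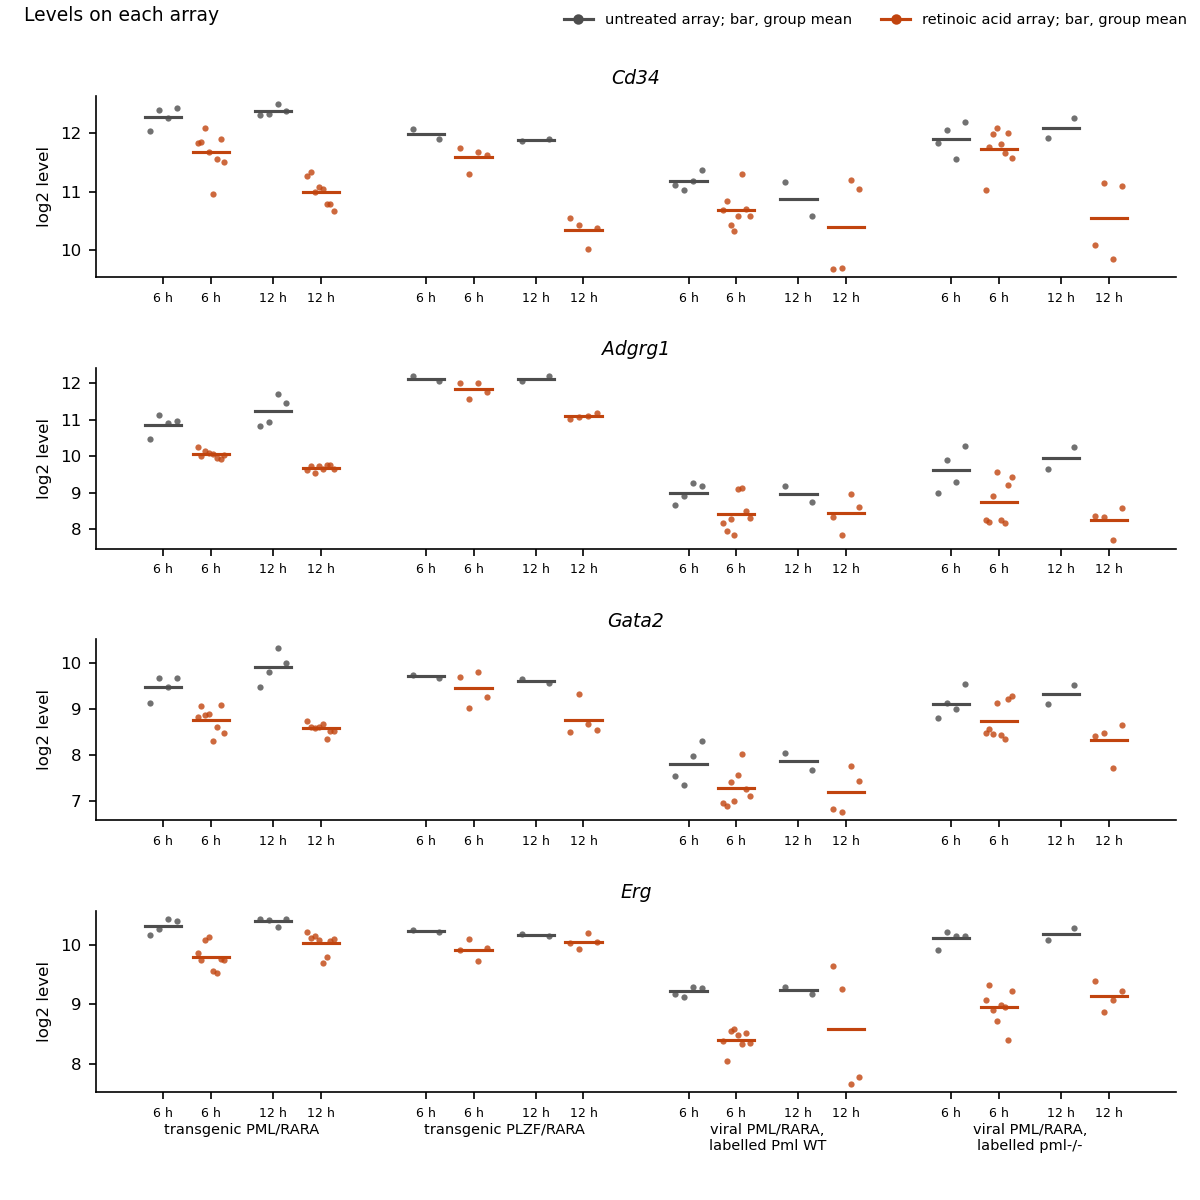
Log2 levels (vertical axes) of Cd34, Adgrg1, Gata2 and Erg on each array, by leukaemia type and time; points are arrays and bars are group means. At 12 h the RA arrays of both transgenic types lie below the untreated ones for Cd34, Adgrg1 and Gata2, and the wild type RA arrays at 12 h split into pairs for Cd34 and Erg.

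The plot of Cd34, Adgrg1, Gata2 and Erg sets the 2 times side by side: in transgenic PML/RARA all 4 were called at 6 h, and in PLZF/RARA none was at 6 h and 3 were at 12 h. At 6 h 14.3% of all genes were called in transgenic PML/RARA and 2.20% in PLZF/RARA, where 4.03% were at 12 h. At each time PML/RARA had 4 untreated and 8 RA arrays, and PLZF/RARA 2 and 4. The changes of these 4 genes in PLZF/RARA at 6 h lay between -0.40 and -0.26. The step from 6 h to 12 h was not tested in PLZF/RARA.

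Myb, which keeps progenitors cycling, fell at 6 h in both viral backgrounds. The difference between the transgenic and viral responses was not tested. Arrays labelled wild type went from 11.26, 11.55, 11.41 and 11.59 to between 10.86 and 11.26, with 7 of the 8 RA arrays below all untreated ones, and fell by 0.44 ± 0.11 (adjusted p = 0.00867). The call was lost without untreated array 2 (adjusted p = 0.054) and kept without RA arrays 5 and 6 (-0.39, adjusted p = 0.0236). Arrays labelled Pml null went from 12.09, 12.24, 12.27 and 12.13 to between 11.53 and 11.96, and fell by 0.48 ± 0.11 (adjusted p = 0.00433). Both were called within batch 4 (-0.46 in each) and neither within batch 3 (-0.42 and -0.50). At 12 h the wild type change was -0.49 ± 0.16 (adjusted p = 0.066), and -0.82 (called) without RA arrays 1 and 2. In transgenic PML/RARA it was -0.21 ± 0.08 at 6 h (adjusted p = 0.072) and -0.13 ± 0.08 at 12 h. The 6 h change there was called with array medians centred (-0.22, adjusted p = 0.0496), without low genes (0.0429), with the untreated arrays of both times pooled (0.014) and without RA array 3 or 4 (0.0445 and 0.0404).

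Meis1, Mecom and Sox4 did not pass the test in any RA comparison of the main fit. Meis1, the partner of Hox proteins, ran from 5.88 to 6.08 on untreated and from 5.81 to 6.50 on RA arrays of transgenic PML/RARA at 6 h. Its change was 0.25 ± 0.09 (adjusted p = 0.0689), and 0.30 (adjusted p = 0.014) without RA array 7. It was also called as a rise there with all 72 arrays in 1 fit and with the untreated arrays of both times pooled. Its changes in viral leukaemia lay between -0.05 and 0.02. Sox4, a factor of lymphoid and progenitor cells, changed by 0.25 ± 0.12 and 0.26 ± 0.12 in transgenic PML/RARA (adjusted p = 0.196 and 0.122). In this type Sox4 was called as a rise at 12 h without RA array 3 (0.31, adjusted p = 0.048), and at 6 h with the untreated arrays of both times pooled. Its highest RA arrays there were at 7.75 and 7.64, against at most 7.27 and 7.12 untreated. Mecom stayed between 4.78 and 5.45 on all 72 arrays, with changes between -0.14 and 0.11. Its second probe set, with changes between -0.03 and 0.15, was not called either.

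**Figure D4:**
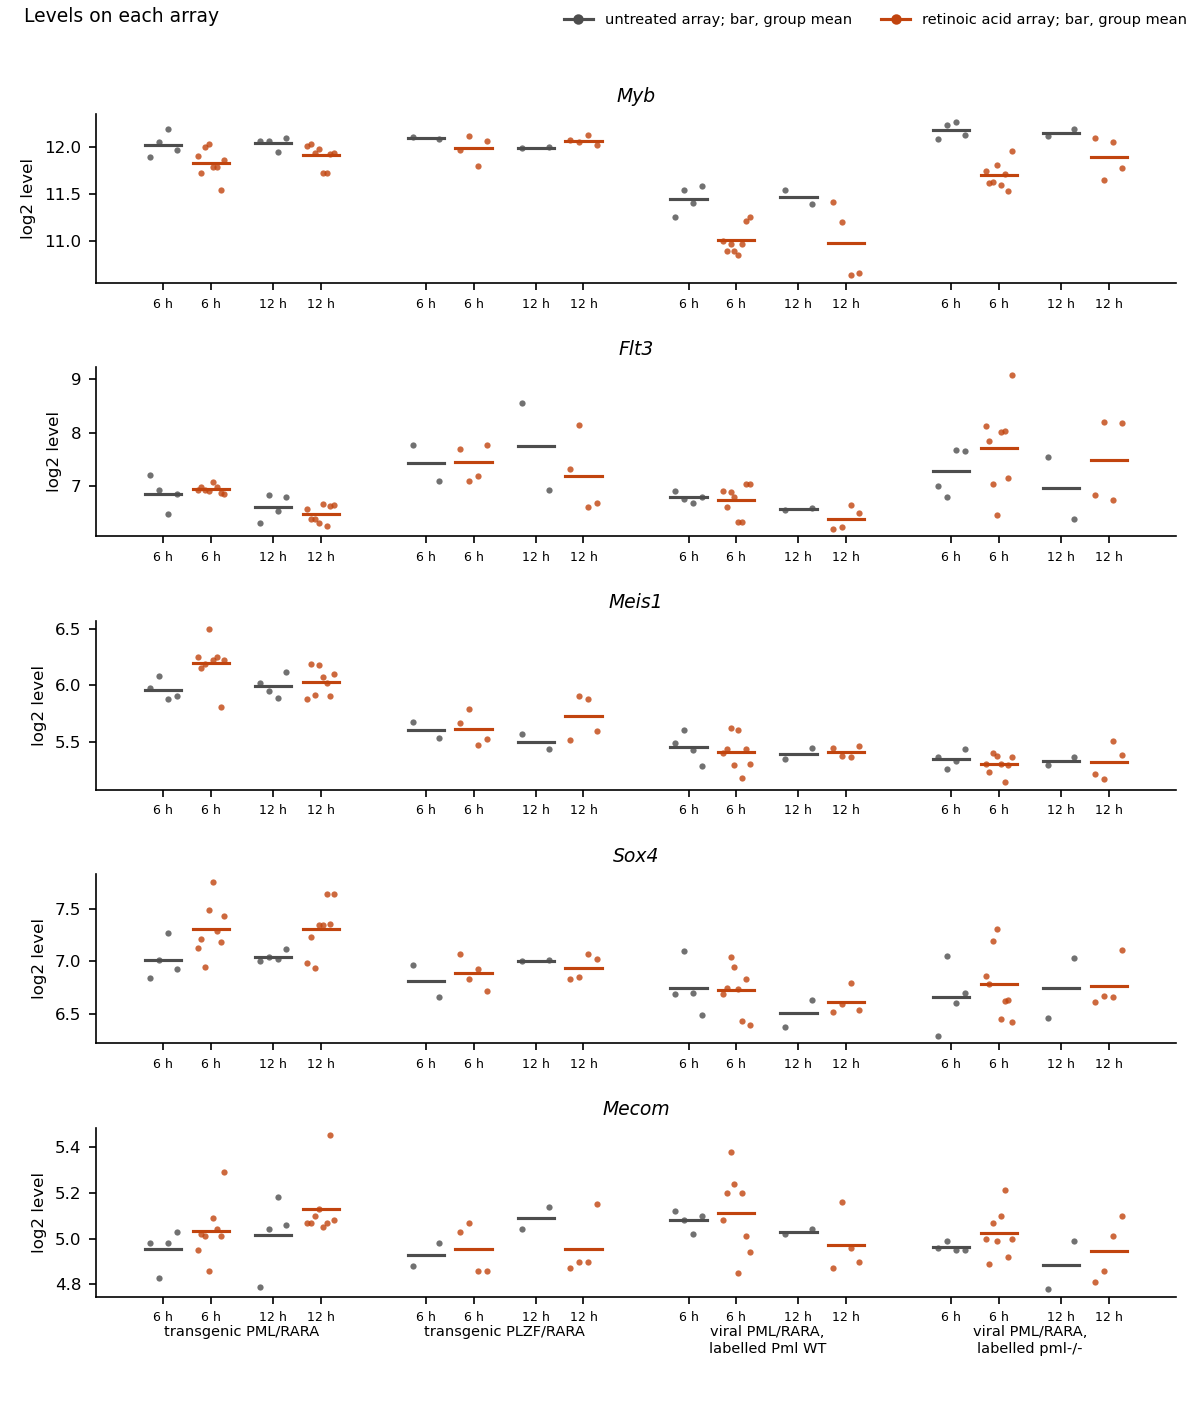
Log2 levels (vertical axes, each with its own range) of Myb, Flt3, Meis1, Sox4 and Mecom on each array, by leukaemia type and time; points are arrays and bars are group means. RA arrays of Myb lie lower at 6 h in both viral backgrounds, Flt3 spreads from 6.46 to 9.08 on Pml null RA arrays at 6 h, and Mecom stays between 4.78 and 5.45.

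The plot of the members called rarely or not at all gives each gene its own axis, because levels of different probe sets cannot be set against each other. Maturation markers were read beside the falls. Of 13 secondary granule and neutrophil genes (such as Ltf, Camp and Ngp), 5 rose and 1 fell in transgenic PML/RARA at 12 h, 5 rose in PLZF/RARA, 6 in Pml null and 1 in wild type viral leukaemia. Their mean differed from untreated by 0.37, 0.65, 0.98 and 0.45 in that order. The shares of all genes called in either direction were 21.6%, 4.03%, 6.05% and 6.10% in the same order. In viral wild type only RA arrays 1 and 2 (12.63 and 12.58) lay above the untreated mean of 11.61, and arrays 3 and 4 (11.50 and 11.52) lay below it. The counts without the pairs of arrays were not computed. Of the 8 primary granule genes 3 rose and 3 fell in transgenic PML/RARA (median -0.03), 1 rose in PLZF/RARA (median -0.08), 2 rose and 3 fell in Pml null (median -0.08), and none was called in viral wild type (median -0.09). At 6 h, where members also fell, 1 of the 13 secondary granule and neutrophil genes rose in transgenic PML/RARA and none was called in PLZF/RARA. In each viral background 1 rose and 1 fell at 6 h. Their mean differed from untreated by 0.19, -0.06, 0.16 (wild type) and -0.22 (Pml null). The shares of all genes called at 6 h were 14.3%, 2.20%, 9.88% and 11.4% in that order. Of the other lists at 12 h, 4 of 5 erythroid genes rose in transgenic PML/RARA. Of 11 endothelial and stromal genes 4 rose and 1 fell there, 3 rose in PLZF/RARA, 2 fell in Pml null and none was called in viral wild type. Of 10 monocyte and macrophage genes 2 rose and 1 fell in transgenic PML/RARA, 2 rose in PLZF/RARA and 1 fell in viral wild type. Of 9 T and NK cell genes 2 rose in PLZF/RARA and 1 fell in Pml null. In transgenic PML/RARA 1 of 8 B cell genes rose and 1 fell, and 1 of 7 megakaryocyte genes rose. Of 12 mast cell genes 1 rose and 2 fell in transgenic PML/RARA, 1 rose and 1 fell in Pml null, and 1 fell in each other type. The part of these cells in the members' changes was not tested.

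The second comparison asked whether the RA response depends on the fusion, as the difference in RA effect between transgenic PML/RARA and PLZF/RARA averaged over both times. Of the members 2 were called, Kit and Adgrg1, where 7.42% of all genes were. Kit fell further in PML/RARA, with a difference of -1.04 ± 0.20 (95% interval from -1.44 to -0.64, adjusted p = 0.000647). It was -1.06 within batch 1, which holds arrays of both fusions, and between -1.10 and -0.99 without each array in turn, always called. Adgrg1 also fell further in PML/RARA, by a difference of -0.52 ± 0.14 (adjusted p = 0.0197), which was lost without untreated PLZF/RARA array 2 of 6 h (adjusted p = 0.079) and with all 72 arrays in 1 fit (0.274).

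For Cd34 the same difference was -0.02 ± 0.17, with a 95% interval from -0.37 to 0.33. An interval of that width does not show that Cd34 responds alike in both. Gata2 gave -0.46 ± 0.19 (adjusted p = 0.156) and Erg -0.24 ± 0.12 (adjusted p = 0.266). The difference between the members was not tested itself. Of the marker lists, 1 of the 13 neutrophil genes was called in this comparison, as higher, and none of the 12 mast cell genes.

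The third comparison asked whether the RA response depends on the Pml label in viral leukaemia. No member was called, where 1.13% of all genes were, and in limma 1 of the 10 had an unadjusted p below 0.05. That one was Adgrg1, with a wild type minus Pml null difference of 0.73 ± 0.33 (adjusted p = 0.559). For Kit the difference was -0.07 ± 0.36 with a 95% interval from -0.81 to 0.67, and -0.29 ± 0.25 without wild type 6 h RA arrays 5 and 6. Within batches it was 0.12 (batch 3) and -0.69 (batch 4, 6 h only). An interval of that width does not show that the backgrounds respond alike. In the wild type background the step from 6 h to 12 h called 0% of all genes. No member had an unadjusted p below 0.05 there in limma, and 298 of all genes did.

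The fourth comparison concerned the untreated leukaemias. Between the transgenic fusions 3 members were called, close to the 25.3% of all genes. Adgrg1 was lower in PML/RARA than in PLZF/RARA by a difference of -1.08 ± 0.12 (2.12-fold, adjusted p = 5.37e-09), at 10.47 to 11.71 against 12.06 to 12.21 without overlap. Flt3 was lower too, at -0.89 ± 0.22 (adjusted p = 0.00219), but -0.49 (adjusted p = 0.107) without PLZF/RARA untreated array 1 of 12 h, which was at 8.56. Meis1 was higher in PML/RARA by 0.41 ± 0.09 (adjusted p = 8.51e-04), at 5.88 to 6.12 against 5.44 to 5.68. Cd34 was at 0.37 ± 0.14 (adjusted p = 0.056), and was called under 5 alternatives: no batch term (0.39), quantile normalization (0.39), low genes left out (0.37), batch as a random block (0.39) and batch 1 alone (0.42). Kit was at -0.34 ± 0.16 (95% interval from -0.675 to -0.00834, adjusted p = 0.137), not called. Its untreated arrays were nevertheless at 9.82 to 10.65 in PML/RARA against 10.67 to 10.79 in PLZF/RARA, without overlap. The arms of the Kit comparison are therefore not shown to start at equal levels. Markers of other cells differed as well: 6 of 7 megakaryocyte genes, 4 of 5 erythroid genes, 5 of 9 T and NK cell genes, 3 of 8 B cell genes and 5 of 11 endothelial and stromal genes were higher in PML/RARA, and 1 megakaryocyte and 1 T and NK cell gene lower. Of 10 monocyte and macrophage genes 6 were higher and 2 lower, of 13 neutrophil genes 6 higher, of 8 primary granule genes 4 higher and 1 lower, and of 12 mast cell genes 2 lower. Their part was not tested.

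Between the viral backgrounds, untreated, 6 of the 10 members were lower in leukaemia labelled wild type than in leukaemia labelled Pml null, and 20.8% of all genes were called. Kit gave -1.79 ± 0.30 (3.46-fold, adjusted p = 1.75e-05), with 9.08 to 9.56 against 10.87 to 11.26. Gata2 gave -1.38 ± 0.21 (adjusted p = 3.97e-06) and Myb -0.71 ± 0.11 (adjusted p = 9.11e-06). Erg was at -0.92 ± 0.22, Cd34 at -0.97 ± 0.25 and Adgrg1 at -0.80 ± 0.27 (adjusted p = 0.00231, 0.00445 and 0.0304). Kit, Gata2 and Myb were called within batch 3 and within batch 4, Erg within batch 4 only, and Cd34 and Adgrg1 within neither. The call for Adgrg1 was lost on leaving out any 1 of 5 of the 12 arrays (adjusted p between 0.0511 and 0.19) and that for Cd34 without wild type untreated array 2 of 12 h (adjusted p = 0.0523). Kit after RA in Pml null leukaemia (mean 9.37 at 12 h) was near the untreated level of the wild type background (mean 9.16).

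Secondary granule genes differed in the opposite direction to the called members, and primary granule genes went both ways. All 13 secondary granule and neutrophil genes were higher in the untreated wild type arrays, with a median of 2.29, and their mean was 11.66 at 6 h and 11.61 at 12 h against 9.59 and 9.40 in Pml null. Of the 10 monocyte and macrophage genes 6 were higher in wild type. Of the 8 primary granule genes 4 were higher and 4 lower (median 0.05), and of 12 mast cell genes 2 were higher and 2 lower. Of 8 B cell genes 1 was higher and 2 lower, and of 9 T and NK cell genes 2 higher and 3 lower. Of 7 megakaryocyte genes 2 were higher, and of 11 endothelial and stromal genes 1 was lower. Whether the labels' background or the share of maturing cells goes with the lower stem and progenitor levels cannot be told apart here.

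**Figure D5:**
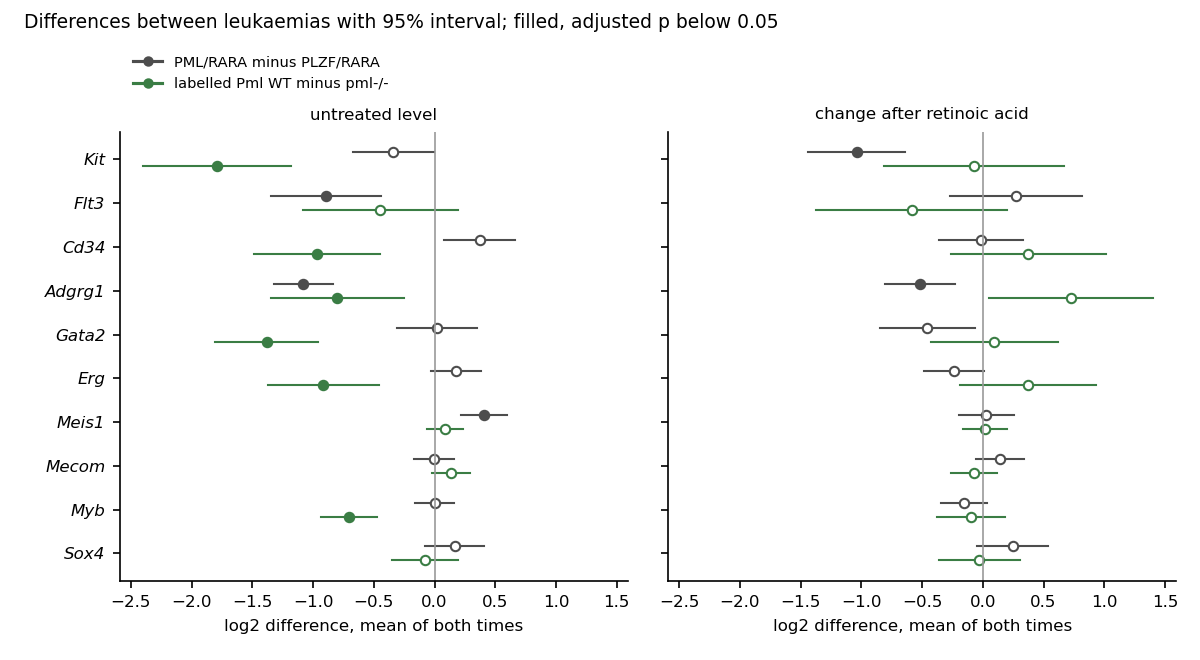
Differences between leukaemia types for each member (horizontal axis, log2, with 95% interval, averaged over 6 h and 12 h), in the untreated level on the left and in the change after RA on the right; filled points have an adjusted p below 0.05. The 6 untreated differences by Pml label that were called are filled and none of the differences in RA change by Pml label is, while Kit (-1.04) and Adgrg1 (-0.52) are filled in the RA change by fusion.

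The plot of differences between leukaemias sets the untreated level beside the response: the 6 members that differed by Pml label before treatment had intervals for the response that reached over 0 for all but Adgrg1.

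The other genes of the same pathways were counted at 12 h from lists written for this purpose. These counts stand against the 21.6% of all genes called in transgenic PML/RARA at 12 h, 4.03% in PLZF/RARA, 6.10% in viral wild type and 6.05% in Pml null. Values of these genes without the pairs of viral arrays that stood apart, or without single arrays, are not given here. Their 12 h changes in PLZF/RARA and in both viral backgrounds rest on 2 untreated arrays each. Of the 5 factors that bind with Gata2 and Erg at stem cell enhancers (Tal1, Lyl1, Lmo2, Runx1 and Fli1), Fli1, a further ETS factor, rose in all 4 leukaemia types, by 0.51 ± 0.06 in transgenic PML/RARA, 0.38 ± 0.08 in PLZF/RARA, 1.17 ± 0.15 in viral wild type and 1.13 ± 0.15 in Pml null. Erg, the member of the same family, did not rise in any of them and fell in transgenic PML/RARA and in Pml null. Lmo2 (-0.25) and Runx1 (-0.30) fell in transgenic PML/RARA, and no other factor of this list was called at 12 h.

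Of 25 genes of Kit and Flt3 signalling, 11 rose and 2 fell (Inpp5d and Spred1, inhibitors of the pathway, named after their values were seen) in transgenic PML/RARA at 12 h, with a median change of 0.20. The 11 held adaptors and a ligand of the pathway (Gab2, Shc1 and Flt3l, also named after their values were seen) as well as inhibitors. In PLZF/RARA 1 fell (median 0.01), in viral wild type 3 rose and 1 fell (0.03), and in Pml null 4 rose (0.17). Dusp6, a phosphatase of ERK, rose by 1.15 ± 0.14 in transgenic PML/RARA, 0.99 ± 0.27 in viral wild type and 1.28 ± 0.27 in Pml null, and was at 0.59 ± 0.20 in PLZF/RARA (adjusted p = 0.101). Its RA effect was higher in PML/RARA than in PLZF/RARA by 0.84 (adjusted p = 0.00197). Sla, an adaptor that lowers receptor signalling, rose by 1.10 ± 0.12 in transgenic PML/RARA, 0.50 ± 0.14 in viral wild type and 1.17 ± 0.14 in Pml null, and Ptpn6, a phosphatase that dampens receptor signals, by 0.47 ± 0.06 in transgenic PML/RARA. Spred2, an inhibitor of the Ras pathway, rose by 1.62 ± 0.36 in viral wild type and by 0.71 ± 0.16 in transgenic PML/RARA. The kinase Jak2 rose by 0.98 ± 0.13 in Pml null. Socs1, an inhibitor of cytokine signalling, fell by 0.88 ± 0.14 in PLZF/RARA and fell by 0.68 ± 0.17 in viral wild type. In the difference in RA effect between the fusions, 9 of the 25 were higher in PML/RARA and none lower, where 7.42% of all genes were called.

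Of 8 Meis1 partners, Pbx2 rose by 0.31 ± 0.08 and Pbx3 fell by 0.60 ± 0.13 in transgenic PML/RARA at 12 h, and none was called in the other types. Of 16 other regulators 4 rose and 3 fell in transgenic PML/RARA. The repressor Gfi1 rose there by 0.55 ± 0.12 and in PLZF/RARA by 0.60 ± 0.17. Its relative Gfi1b rose by 2.18 ± 0.40 in Pml null and by 1.10 ± 0.24 in transgenic PML/RARA. Lmo4 rose by 0.38 ± 0.08 in transgenic PML/RARA, 0.51 ± 0.12 in viral wild type and 0.58 ± 0.12 in Pml null, and Ikzf2 (Helios) fell by 0.92 ± 0.13 in transgenic PML/RARA.

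Of 16 other surface genes of stem and progenitor cells, 4 rose and 1 fell in transgenic PML/RARA at 12 h. Cd93 rose by 1.36 ± 0.13 and the chemokine receptor Cxcr4 by 0.36 ± 0.08, while Csf3r, the receptor for G-CSF, fell by 0.80 ± 0.11. Thy1 fell by 0.57 ± 0.14 in PLZF/RARA and Csf2ra, a chain of the GM-CSF receptor, rose by 0.49 ± 0.14 in Pml null, the only calls of this list in those types. None of the 16 was called in viral wild type at 12 h.

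Over the 16 groups, Kit was highest in untreated Pml null leukaemia at 6 h (mean 11.10 ± 0.11, SD, n = 4) and at 12 h (10.97 ± 0.14, n = 2). Next came untreated PLZF/RARA at 12 h (10.73) and at 6 h (10.70), and RA-treated PLZF/RARA at 6 h (10.51). It was lowest in RA-treated viral wild type leukaemia at 12 h (7.73 ± 0.44, n = 4) and at 6 h (7.78 ± 0.87, n = 8), a span of 3.37. Of the 15 neighbouring pairs in this order 12 differed by less than the larger of their SDs. The clearest step, 1.22, was between RA-treated transgenic PML/RARA at 6 h (8.99) and RA-treated viral wild type at 6 h. The models share no batch, so this order across models is a description.

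The spans of the other members were 3.90 for Adgrg1, 2.70 for Gata2, 2.03 for Cd34, 1.99 for Erg, 1.35 for Flt3, 1.2 for Myb, 0.89 for Meis1, 0.80 for Sox4 and 0.24 for Mecom. Within the transgenic groups Myb spanned 0.27 and within the viral groups 1.2. For Meis1 it was the reverse, 0.70 and 0.14. Of the 15 neighbouring pairs 11 lay within the spread for Gata2 and Adgrg1, 12 for Myb, 13 for Meis1, 14 for Cd34, Erg and Sox4, and 15 for Flt3 and Mecom.

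With the group means centred within each model, the patterns of the members over the 16 groups were compared by Pearson's r, as a description without a p-value, since the groups share batches, models and RA. Kit ran most like Gata2 (r = 0.91), Myb (0.91) and Erg (0.87), then Adgrg1 (0.77) and Cd34 (0.63), with a negative r for Mecom (-0.54) and Meis1 (-0.49). Mecom (mean level 5.02) lay above 17.8% of genes and its group means spanned 0.24, so its r values rest on small differences. Meis1 (5.65) lay above 28.2% of genes and spanned 0.70 within the transgenic and 0.14 within the viral groups. Meis1 ran opposite to Adgrg1 (-0.74) and Flt3 (-0.71) and with Sox4 (0.66). Among 3288 genes with a span of at least 1, the 6 most like Kit were Nedd4 (0.969), Hdac10 (0.966), Kansl1l (0.964), Dapp1 (0.959), Vps13a (0.958) and Tbc1d5 (0.958).

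For Gata2 the 3 most alike were Plcg1 (0.977), Crtap (0.973) and Sirt3 (0.966), for Myb Selenoi (0.979), Dhcr7 (0.971) and Eef2k (0.97), and for Erg Parp8 (0.956), Ccdc137 (0.955) and Icam2 (0.953). For Adgrg1 they were Top3b (0.963), Ivns1abp (0.953) and Angel1 (0.951), and for Cd34 Fads3 (0.922), Dnph1 (0.858) and Kcna3 (0.857). Flt3 was followed by Acss1 (0.943), Elovl6 (0.926) and Ct55 (0.898), Meis1 by Tmtc3 (0.967), Gimap7 (0.963) and Cd226 (0.962), and Sox4 by Cdkn1c (0.91), Myadml2 (0.858) and Abcb4 (0.855). Mecom had no close match, with Susd3 (0.708), Gas2l2 (0.681) and Slc12a5 (0.675) as the nearest.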

How the data were processed

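Expression was measured on 72 arrays, for each of which the authors deposited 35556 log2 values. The submitters' processing notes name RMA and affy. Settings, versions and any correction of batches were not given in the sources used here. From the 21789 probe sets with exactly 1 gene symbol, the brightest per symbol gave 19938 genes, without a filter on low values. The 36 arrays of each model were fitted with limma 3.58.1 (R 4.3.3) on group and batch (27 residual degrees of freedom), with eBayes and two-sided tests. Benjamini-Hochberg adjustment ran over all genes in each of 14 contrasts. The fit was tested on simulated data. The number of arrays limits the precision. Transgenic and viral arrays share no batch, so no contrast crosses the models.

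The members and lists were chosen with earlier results of these data known. Named genes are the members, the 6 genes most like Kit and 3 most like each other member, and up to 3 genes per pathway list and leukaemia type with the largest moderated statistic among those called at 12 h. Alternatives were quantile normalization, centring, a filter on low genes, another prior, the mean of probe sets, other batch terms, all arrays in 1 fit, pooled untreated arrays, single batches, and arrays left out. The sets without pairs of arrays that stood apart, and some within-batch values, were chosen after seeing the data.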

Additional observations from a re-analysis of the deposited data

Results flagged for a closer look

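The RA effect on Kit differed between the transgenic fusions by -1.04 (PML/RARA minus PLZF/RARA), and that on Adgrg1 by -0.52, each with an adjusted p below 0.05 in limma for the difference itself. The RA effect on Adgrg1 in transgenic PML/RARA changed by -0.74 from 6 h to 12 h by the same kind of test. That last call was lost on leaving out any 1 of 16 of the 24 arrays. Both Adgrg1 calls were lost with all 72 arrays in 1 fit.

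A screen for single arrays apart from their group (Dixon's test) picked 6 of 120 combinations of member and group. Chance passes this test in a share of about 0.05 of groups, so the count is about what chance would give. The 6 are listed as values only. Kit was 10.2 on RA array 2 of PLZF/RARA at 12 h, against 10.47 to 10.5 on the other 3. Erg was 10.3 on untreated array 3 of transgenic PML/RARA at 12 h (others 10.42 to 10.43) and 8.06 on RA array 2 of viral wild type at 6 h (others 8.34 to 8.58). Mecom was 5.45 on RA array 7 of transgenic PML/RARA at 12 h (others 5.05 to 5.13) and 5.15 on RA array 4 of PLZF/RARA at 12 h (others 4.87 to 4.90). Sox4 was 7.11 on RA array 4 of Pml null at 12 h (others 6.62 to 6.67).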

How the results depend on the processing

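No paired analysis was possible because every title carries the same replicate number. Of the 38 calls of a member, all were kept under quantile normalization, centring, the mean of probe sets, a trended and robust prior, and batch as a random block, and none changed sign under any alternative. Calls were also gained: 1 each without the batch term, with centring, with a random block and within batch 1, 2 each with 1 fit and quantile normalization, 3 without low genes and 5 with pooled untreated arrays, all of Cd34, Myb, Meis1, Sox4 or Gata2. The gained calls of Meis1 and Sox4 were rises after RA at 6 h in transgenic PML/RARA, and those of Myb and Gata2 were falls after RA. Without the batch term 36 were kept and with all 72 arrays in 1 fit 33. Without low genes 37 of 37 were kept, with 3 members left out by that filter. With the untreated arrays of both times pooled 26 of 26 were kept. Within single batches 10 of 10 (batch 1), 2 of 5 (batch 2), 3 of 13 (batch 3) and, in batch 4, 6 of 7 and 4 of 6 were kept, where fewer arrays entered. The median of all genes shifted by at most 0.0686 (log2).

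The number of members called in viral wild type at 12 h went from 1 to 0 without the batch term, 2 with 1 fit, 2 with quantile normalization, 2 without low genes, 3 with pooled untreated arrays, 3 without RA arrays 1 and 2, 2 without RA arrays 3 and 4, and between 0 and 3 on leaving out 1 array. For Pml null at 12 h it was 5, and 2 without RA arrays 1 and 3, 3 without RA arrays 2 and 4, and between 0 and 5 on leaving out 1 array. For transgenic PML/RARA at 6 h it was 8 with pooled untreated arrays (Meis1 and Sox4 as rises) and 2 within batch 2. For both viral backgrounds at 6 h it was 0 within batch 3 (wild type 0, Pml null 0). For the difference in RA effect between the fusions it was 1 with 1 fit and 1 to 2 on leaving out 1 array. For the change from 6 h to 12 h in transgenic PML/RARA it was 0 with 1 fit and 0 to 2 on leaving out 1 array. For the untreated difference by Pml label it was 3 within batch 3. The shares of all genes called under these alternatives are not given here. A shift in these counts is therefore not shown to be particular to the members. Where fewer arrays entered, that is part of the alternative, and otherwise the cause was not tested. With 2 untreated arrays in PLZF/RARA and in the viral groups at 12 h, those values rest on few arrays.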
